A study of Rattus with 12 samples.

Results

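Genes for metabolic and brush border enzymes of the proximal tubule were examined in medullary thick ascending limb preparations from rats. The 32 genes were set by name from the textbook functions of the segment (gluconeogenesis, fructose and amino acid metabolism, peptidases and vitamin D). They were chosen with earlier results of these data known, so the shares of genes called below are descriptions only. Each was found in 1 row of the deposited gene table, which holds 42915 rows in all. The tissue came from 12 male rats aged 7 weeks, kept on a diet with 0.4% NaCl and given no other treatment. Of these, 6 were Dahl salt-sensitive rats of the inbred strain SS/JrHsdMcwi (SS). The other 6 were consomic rats, named SS-Chr 1BN/Mcwi and here SS.BN1, whose chromosome 1 comes from the Brown Norway rat on the salt-sensitive background. The comparison asks what exchanging that chromosome does to the segment, in work on salt-sensitive hypertension. Tubules were picked by hand under a microscope after digestion of the inner stripe of the outer medulla, per the labels, so no marker-based sort separated cell types.

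The proximal tubule reclaims most of the filtered load, and its cells carry a dense brush border of peptidases that cleave filtered peptides for reabsorption. The same cells make glucose from lactate and amino acids, break down fructose and inositol, begin creatine synthesis, and activate and inactivate vitamin D. The straight part of this segment ends where the inner stripe begins, and the thick ascending limb that runs beside it is known for salt transport and not for these enzymes. An mRNA level in a mixed preparation rises with the number of cells of a type and with the RNA each cell holds, and these cannot be told apart here.

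Most of these genes were detected, at levels from traces to 290.3 FPKM (sequenced fragments scaled to transcript length and to library size), and the tested ones had higher values in SS. Of the 32 genes, 25 reached a mean of 1 FPKM over both strains and 7 did not, beside 38.5% of all rows of the gene table that reached it. The authors tested exactly those 25 genes. Of these, 8 had a q under 0.05 (the authors' p adjusted over 13253 tested rows) and are called here: Kap, Miox, Pck1, Agxt2, Aldh8a1, Dpp4, Mep1a and Mep1b. All 8 were higher in SS, beside 3.32% of all tested rows called in that direction, and none was higher in SS.BN1, beside 0.0981%. The called folds ran from 1.86 (Dpp4) to 3.34 (Mep1b). The other 17 genes missed the threshold, 8 of them with an unadjusted p under 0.05. With the called ones, 16 of the 25 were higher in SS with such a p, beside 6.93% of all tested rows.

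All 25 tested rows had the higher value in SS, beside 50.3% of all tested rows of the table, although the G6pc row is mostly another gene and the isoforms annotated to G6pc had a log2 ratio of -0.02. Their median log2 ratio of SS over SS.BN1 was 0.89, beside 0.00125 for all tested rows. Folds of at least 1.5 were seen for 18 of the 25, beside 8.38% of all tested rows, and folds of at least 2 for 10 of the 25, beside 4.6%. These shares describe the tested genes, which had to reach a sufficient level to be tested. Mep1b alone was under 1 FPKM in SS.BN1 and over it in SS, so it passed through the strain in which it was higher. The expression tables give 1 FPKM per strain, so no FPKM below carries an error between animals.

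**Figure D1:**
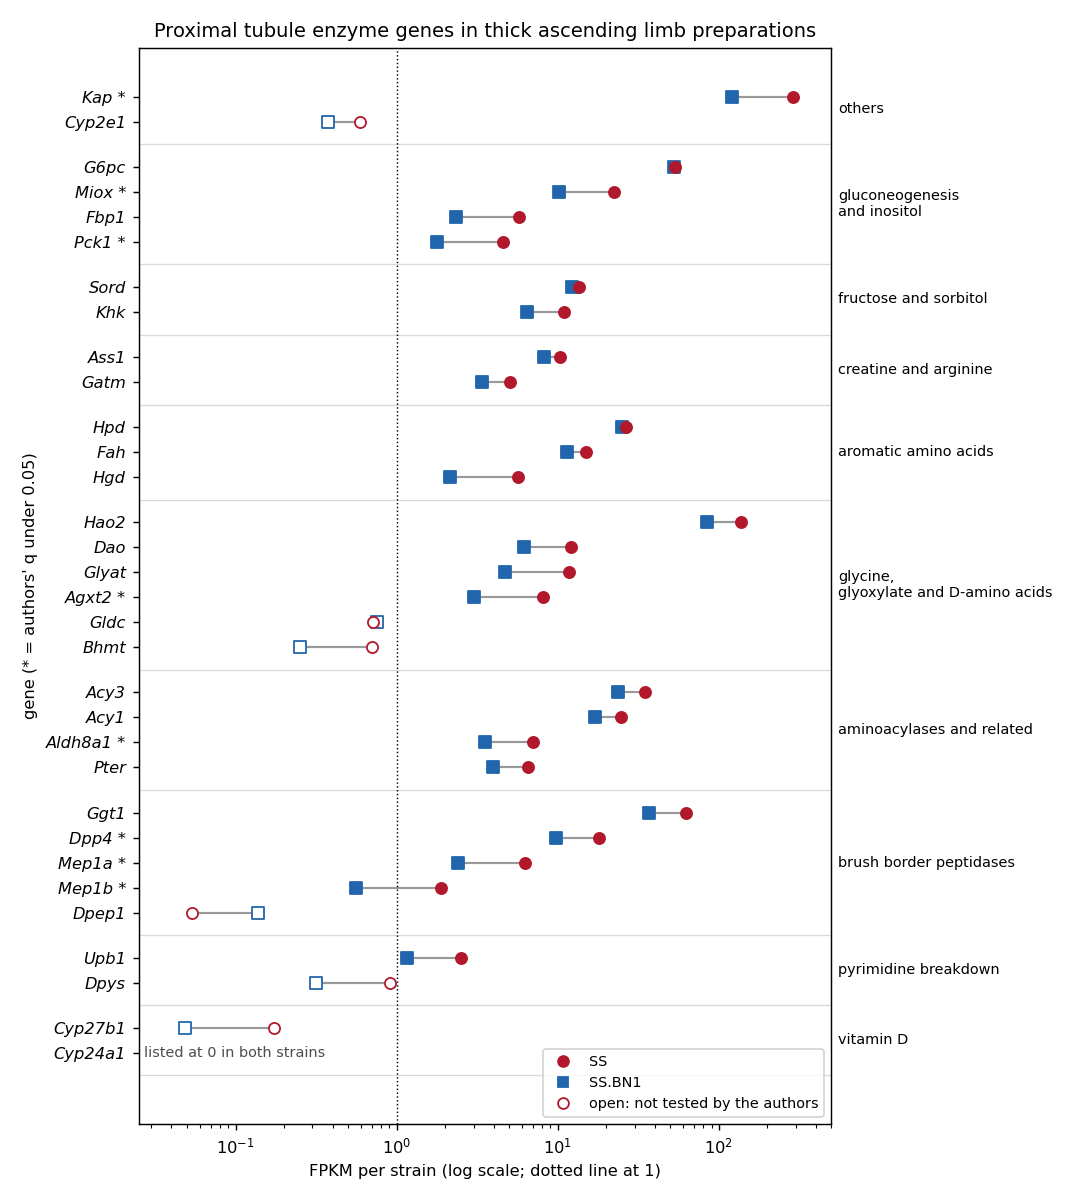
FPKM of the 32 genes on a log axis, 1 red circle for SS and 1 blue square for SS.BN1 per gene, grouped by role; asterisks mark the 8 genes with the authors' q under 0.05 and open symbols the 7 genes that were not tested. In the tested rows the red circle lies to the right of the blue square, by little for G6pc, Hpd and Sord, and Cyp24a1 is listed at 0 in both strains.

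The preparations were led by thick ascending limb transcripts in both strains. All 9 markers of that segment were tested and none was called, with a median log2 ratio of 0.10 (none had an unadjusted p under 0.05), and their summed level was 14486 FPKM in SS against 12585 in SS.BN1. Markers of proximal tubule transport were present at far lower levels: 17 were found, 11 were tested and 8 were called higher in SS (beside the same 3.32%), and their sum was 221 FPKM in SS against 80.7 in SS.BN1. Of these, none was listed at 0 in both strains. The most abundant was Slc7a13, an amino acid carrier of the straight proximal tubule, at 96.2 FPKM in SS against 31.1 in SS.BN1. Slc5a2, the glucose carrier of the early proximal tubule, stood at 0.204 FPKM in SS against 0.153 in SS.BN1, and was not tested. Among the called markers, Slc17a3 (2.02 FPKM in SS against 0.558 in SS.BN1) and Cubn (2.04 and 0.872) were over 1 FPKM only in SS. The called markers Slc22a12, Slc22a2 and Slc6a18 lie on chromosome 1, the exchanged chromosome, and the other called ones lie elsewhere. The part of the proximal tubule markers in the enzyme results was not tested. Libraries held 42.3 to 59.8 M reads, with 85.9% ± 0.339 mapped in SS and 85.3% ± 0.522 in SS.BN1 (SD, n = 6 each; exact permutation p = 0.0649, two-sided, 0.156 after adjustment over 4 library measures, with 0.00216 the smallest p possible).

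Kap, the kidney androgen-regulated protein, which in the mouse is a male-biased product of the proximal tubule, was the most abundant of the 32 genes. Its level was 290.3 FPKM in SS and 120.5 FPKM in SS.BN1, a fold of 2.41 (q = 0.00266 from the authors' deposited table). The p behind it, 5e-05, is the smallest in the authors' deposited table and is shared by 249 rows. The gene lies on chromosome 4 (167549929 to 167553247). A single annotated isoform held 96.2% of the row in SS and 96.9% in SS.BN1 and was also called (279 against 117 FPKM, q = 0.0181 from the authors' deposited table of isoforms). Kap alone made up 36.3% of the summed FPKM of the 32 genes in SS and 26.4% in SS.BN1. Without Kap and the G6pc row, which joins several genes, the summed level was 456 FPKM in SS against 282 in SS.BN1, a ratio of 1.62.

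Gluconeogenesis was represented by 3 genes, of which 1 was called, beside 3.32% of all tested rows called higher in SS. Pck1, the cytosolic phosphoenolpyruvate carboxykinase that commits carbon to glucose, stood at 4.60 FPKM in SS against 1.79 in SS.BN1, a fold of 2.56 (q = 0.0140 from the authors' deposited table; chromosome 3, 171213936 to 171219871). Fbp1, the fructose bisphosphatase of the same pathway, had a similar fold of 2.46, from 2.33 FPKM in SS.BN1 to 5.73 in SS, and was just outside the threshold (q = 0.0708 from the authors' deposited table). Both were single-isoform rows, so the isoform and gene values are the same. The Pck1 isoform kept its call among isoforms, with q = 0.0357 from the authors' deposited table.

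The final gluconeogenic enzyme, G6pc, the phosphatase that releases free glucose, was listed in a row with Psme3, Aoc3 and AC123346.1, at 53.3 FPKM in SS against 52.9 in SS.BN1. Most of this row was not G6pc: the main Psme3 isoform, which encodes a proteasome activator, held 60.8% of it in SS and 60.3% in SS.BN1. The 3 isoforms annotated to G6pc summed to 12.1 FPKM in SS against 12.4 in SS.BN1, a log2 ratio of -0.02. By these isoform values G6pc was at a higher level than Pck1 and Fbp1 and showed no strain ratio like theirs. How reads were divided among the isoforms of this joined row is not known, so its level and ratio are uncertain. The main G6pc isoform had p = 0.943 in the authors' deposited table. The direction of the joined row, with a log2 ratio of 0.01, turned under 2 other scalings, to -0.07 with quantile normalization and to -0.10 when scaled to the sum outside the mitochondrial genome.

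Further gluconeogenic genes differed little between the strains. Of 13 found, 12 were tested, none was called, no unadjusted p in the authors' deposited table was under 0.05, and their median log2 ratio was 0.08. The highest level was that of Mdh1, the cytosolic malate dehydrogenase, at 425 FPKM in SS against 411 in SS.BN1. Pck2, the mitochondrial counterpart of Pck1, had 10.1 FPKM in each strain and was named after its values were seen.

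Miox, the oxygenase that opens the inositol ring and is known as an enzyme of kidney proximal tubules, was called at 22.4 FPKM in SS against 10.2 in SS.BN1, a fold of 2.19 (q = 0.0304 from the authors' deposited table; chromosome 7, 130308532 to 130313727). Its row also carries the small RNA name RF00026, which was listed at 0 in both strains. The annotated Miox isoform made up 7.53% of the row in SS and 7.21% in SS.BN1, at 1.69 and 0.738 FPKM. An assembled isoform with no gene name held the rest, at 20.7 FPKM in SS against 9.49 in SS.BN1. Neither isoform was called, with p = 0.214 for the annotated and 0.00250 for the unnamed one in the authors' deposited table. The call of Miox thus rests on a transcript assembled at its locus, and the deposited tables give that transcript no gene name.

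**Figure D2:**
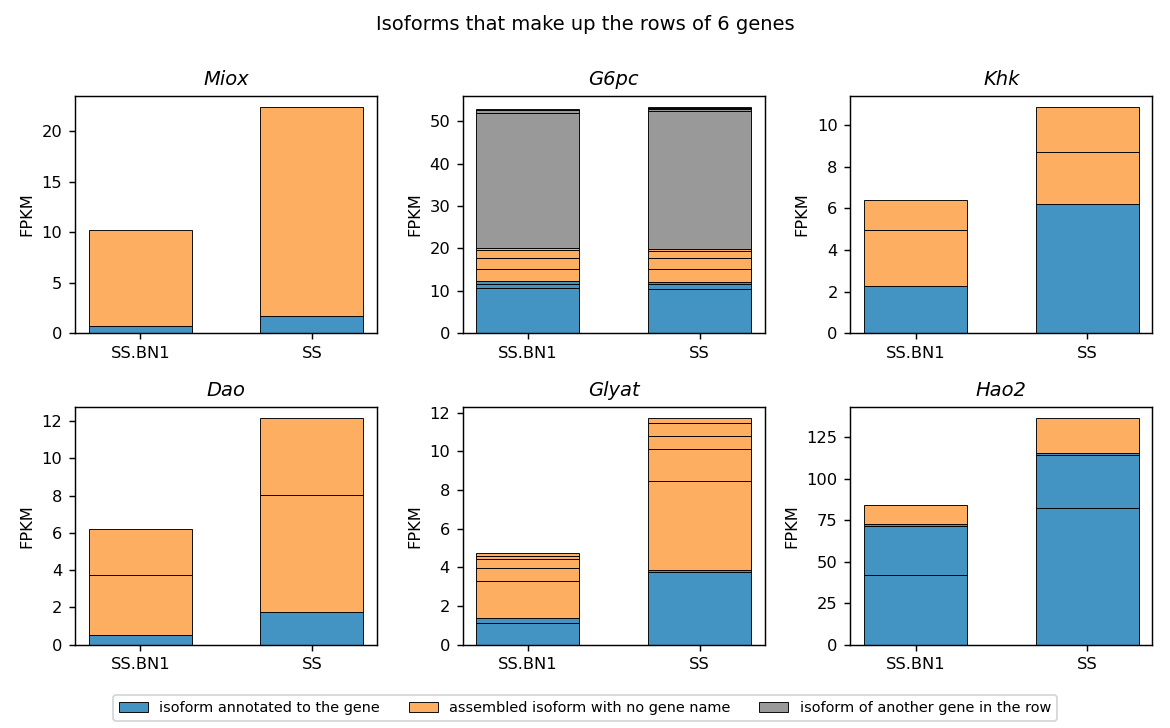
FPKM of the isoforms of Miox, G6pc, Khk, Dao, Glyat and Hao2 as stacked bars, 1 bar per strain, with each segment 1 isoform: blue for isoforms annotated to the gene, orange for assembled isoforms with no gene name, grey for isoforms of another gene in the same row. Unnamed isoforms hold most of the Miox, Dao and Glyat bars in both strains and of the Khk bar in SS.BN1, and a Psme3 isoform holds most of the G6pc bar.

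The fructose and sorbitol enzymes had no call. Khk, the ketohexokinase that starts fructose breakdown, stood at 10.9 FPKM in SS against 6.41 in SS.BN1, a fold of 1.70 (q = 0.285 from the authors' deposited table). Its annotated isoform had 6.22 FPKM in SS against 2.27 in SS.BN1, while 1 of its 2 unnamed isoforms had 2.19 in SS and 2.71 in SS.BN1. The annotated isoform thus held 57.2% of the Khk row in SS and 35.3% in SS.BN1, a difference with no test of its own. Sord, the dehydrogenase that turns sorbitol into fructose, had 13.6 FPKM in SS against 12.2 in SS.BN1 (fold 1.12). Of 12 further genes of fructose, polyol and inositol handling, 9 were tested and none was called (none had an unadjusted p under 0.05; median log2 ratio 0.08). The most abundant of these was the aldehyde reductase Akr1a1, with 158 FPKM in SS against 149 in SS.BN1.

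Creatine and arginine synthesis followed the same pattern of higher, uncalled values. Gatm, the amidinotransferase that makes the creatine precursor, had 5.05 FPKM in SS against 3.36 in SS.BN1 (log2 ratio 0.59, p = 0.106 in the authors' deposited table). Ass1, the argininosuccinate synthase through which the kidney makes arginine, had 10.3 FPKM in SS against 8.23 in SS.BN1 (fold 1.25). A neighbouring step, Asl, which releases arginine, had 19.3 FPKM in SS against 13.7 in SS.BN1 and was named after its values were seen.

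The 3 enzymes that break down tyrosine in sequence differed from one another. Hpd, the hydroxyphenylpyruvate dioxygenase, stood at 26.5 FPKM in SS against 25.0 in SS.BN1 (fold 1.06). Hgd, the homogentisate dioxygenase that follows it, had 5.62 FPKM in SS against 2.15 in SS.BN1 (fold 2.61, p = 0.0676 and q = 0.794 from the authors' deposited table). Fah, the fumarylacetoacetase that ends the pathway, had 15.0 FPKM in SS against 11.4 in SS.BN1 (fold 1.31). None was called, and the difference among their folds was not tested. Scaling to the sum outside the mitochondrial genome took the log2 ratio of Hpd from 0.08 to -0.03.

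Among enzymes of glycine, glyoxylate and D-amino acids, 4 of 6 were tested. Of these, 1 was called, beside 3.32% of all tested rows called higher in SS. Agxt2, a mitochondrial aminotransferase that uses glyoxylate and breaks down methylated arginines, had 8.12 FPKM in SS against 3.01 in SS.BN1, a fold of 2.70 (q = 0.00266 from the authors' deposited table; chromosome 2, 60337667 to 60379420). It has a single isoform, which was called as well (q = 0.00718 from the authors' deposited table of isoforms). Hao2, a peroxisomal hydroxyacid oxidase, was the second most abundant of the 32 genes, at 136.6 FPKM in SS against 84.2 in SS.BN1 (fold 1.62, q = 0.0880 from the authors' deposited table). Within Hao2, 1 annotated isoform had 82.7 FPKM in SS against 41.7 in SS.BN1, a log2 ratio of 0.99, and another had a log2 ratio of 0.07. The first of them held 60.5% of the row in SS and 49.5% in SS.BN1, again with no test of the difference.

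Glyat, the transferase that joins glycine to acyl groups for excretion, lay just outside the threshold with 11.7 FPKM in SS against 4.72 in SS.BN1 (fold 2.48, q = 0.0686 from the authors' deposited table). Its row split into 7 isoforms, and the annotated ones held 33.1% of it in SS and 28.7% in SS.BN1. Dao, the D-amino acid oxidase, had 12.2 FPKM in SS against 6.19 in SS.BN1 (fold 1.97, q = 0.339 from the authors' deposited table). The annotated Dao isoform held 14.4% of the FPKM of that row in SS and 8.57% in SS.BN1, and 2 unnamed isoforms assembled in the same row held the rest. Bhmt, the betaine-homocysteine methyltransferase, was under 1 FPKM, with 0.707 in SS and 0.250 in SS.BN1, and Gldc, the glycine decarboxylase, had 0.711 in SS and 0.752 in SS.BN1. Neither was tested.

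Of the aminoacylases and related enzymes, all 4 were tested and 1 was called, beside 3.32% of all tested rows called higher in SS. Aldh8a1, an aldehyde dehydrogenase of the kynurenine pathway of tryptophan, had 7.04 FPKM in SS against 3.54 in SS.BN1, a fold of 1.99 (q = 0.0382 from the authors' deposited table), the call closest to the threshold. Acy3, which deacetylates mercapturates, had 35.0 FPKM in SS against 23.8 in SS.BN1. Acy1, which releases free amino acids from their acetylated forms, had 24.9 and 16.9, with the same fold of 1.47. Pter had 6.55 FPKM in SS against 3.96 in SS.BN1 (fold 1.66). These 3 had unadjusted p of 0.0224, 0.0261 and 0.0292 in the authors' deposited table and missed the threshold after adjustment.

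Of 44 further genes of amino acid breakdown found, 27 were tested and 2 of these passed the threshold, both higher in SS, beside 3.32% of all tested rows. An unadjusted p under 0.05 was seen for 8 of the 27, and 23 had their higher value in SS, beside 50.3% of all tested rows, with a median log2 ratio of 0.39. The called genes were Bhmt2, a homocysteine methyltransferase (4.47 FPKM in SS against 1.56 in SS.BN1, q = 0.0140 from the authors' deposited table), and Haao, a dioxygenase of the kynurenine pathway (5.14 and 2.01, q = 0.0443 from the authors' deposited table). The most abundant gene of the list, Oat, the ornithine aminotransferase, had 66.5 FPKM in SS against 56.1 in SS.BN1.

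Of the 5 brush border peptidases, 4 were tested and 3 were called, beside 3.32% of all tested rows called higher in SS. Dpp4, the dipeptidyl peptidase that clips incretins and other peptides, had 18.1 FPKM in SS against 9.75 in SS.BN1, a fold of 1.86 (q = 0.0264 from the authors' deposited table; chromosome 3, 48291055 to 48372672). It was spread over 3 annotated isoforms, none of which was called, although each had the higher value in SS. The metalloprotease meprin is built from an alpha and a beta subunit, and both subunit genes were called. Mep1a stood at 6.27 FPKM in SS against 2.40 in SS.BN1, a fold of 2.62 (q = 0.00266 from the authors' deposited table; chromosome 9, 20048121 to 20077702). Mep1b stood at 1.87 FPKM in SS against 0.561 in SS.BN1, a fold of 3.34 and a log2 ratio of 1.74 (q = 0.0264 from the authors' deposited table; chromosome 18, 15063079 to 15089988). The Mep1b ratio depended on the scale, at a log2 ratio of 0.88 with a pseudocount of 1 and 1.15 with quantile normalization. The alpha subunit was at the higher level in both strains, 3.35 times that of the beta subunit in SS and 4.28 times in SS.BN1.

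Ggt1, the gamma-glutamyltransferase that cleaves glutathione at the brush border, was the most abundant of these 5, at 62.5 FPKM in SS against 37.0 in SS.BN1 (fold 1.69). Its row had p = 0.152 in the authors' deposited table, while 1 of its isoforms (29.9 FPKM in SS against 15.9 in SS.BN1) had p = 0.00475 and q = 0.260 there. Dpep1, the renal dipeptidase, was nearly absent, with 0.0533 FPKM in SS against 0.138 in SS.BN1, and was not tested. With Gldc it was 1 of the 2 genes among the 32 whose value was lower in SS.

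Of 21 further brush border peptidases and hydrolases found, 13 were tested and 3 were called, each higher in SS, beside 3.32% of all tested rows. An unadjusted p under 0.05 was seen for 6 of the 13, with a median log2 ratio of 0.53. Anpep, an aminopeptidase, had 25.3 FPKM in SS against 6.48 in SS.BN1, a fold of 3.90 (q = 0.00266 from the authors' deposited table). Its gene lies on chromosome 1, the chromosome exchanged between the strains. Xpnpep2, another aminopeptidase, had 2.52 and 0.895 FPKM, and the alkaline phosphatase Alpl had 2.89 and 1.04, with q = 0.0382 and 0.0330 from the authors' deposited table. Xpnpep2 was thus over 1 FPKM only in SS, the strain in which it was higher. Mme, the neutral endopeptidase, was the most abundant of the list and had 85.3 FPKM in SS against 83.4 in SS.BN1 (p = 0.878 in the authors' deposited table).

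Pyrimidine breakdown was represented by 2 genes at low levels. Upb1, the ureidopropionase that ends the pathway, had 2.51 FPKM in SS against 1.15 in SS.BN1, a fold of 2.18 with p = 0.474 in the authors' deposited table. Dpys, the dihydropyrimidinase before it, had 0.910 FPKM in SS against 0.316 in SS.BN1 and was not tested. Cyp2e1, a cytochrome of xenobiotic metabolism, was also under 1 FPKM, with 0.595 in SS and 0.373 in SS.BN1.

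Both vitamin D enzymes were well under 1 FPKM. Cyp24a1, the hydroxylase that inactivates the hormone, was listed at 0 in both strains, and Cyp27b1, which makes it, had 0.172 FPKM in SS against 0.0485 in SS.BN1. Neither was tested. Of 15 other vitamin D genes found, 11 were tested and 3 were called higher in SS, beside 3.32% of all tested rows. Those were the endocytic receptors Lrp2 (7.86 FPKM in SS against 2.83 in SS.BN1) and Cubn (2.04 and 0.872), which take up the filtered vitamin D carrier, and the carrier gene Gc itself (2.39 and 0.770), with q = 0.00266, 0.00266 and 0.0407 from the authors' deposited table. Lrp2 and Cubn also stand among the proximal tubule markers above. Cubn and Gc were under 1 FPKM in SS.BN1 and over it in SS, so they reached that level through the strain in which they were higher. The vitamin D receptor Vdr had 18.7 FPKM in SS against 14.1 in SS.BN1 (q = 0.528 from the authors' deposited table), and Kl, the most abundant of the list, had 53.1 and 60.3.

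**Figure D3:**
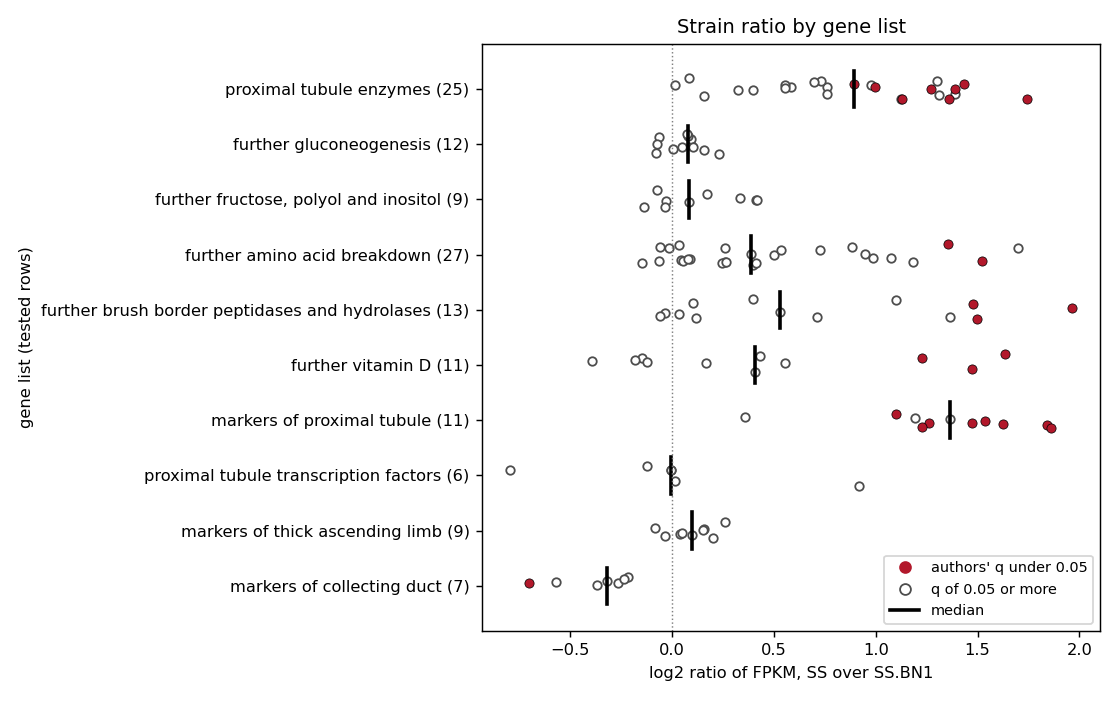
Log2 ratio of SS over SS.BN1 for the tested rows of the proximal tubule enzymes, 5 lists of further pathway genes, and 4 lists of segment markers and transcription factors; each point is 1 gene, filled where the authors' q was under 0.05, and the bar is the median. The enzymes spread from 0.01 to 1.74 with a median of 0.89, between the further gluconeogenic genes (0.08) and the proximal tubule markers (1.36).

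Transcription factors known to drive proximal tubule genes showed no call among 6 tested, with a median log2 ratio of -0.00433 and 1 unadjusted p under 0.05. Hnf4a, which is restricted to the proximal tubule within the nephron, had 2.53 FPKM in SS against 1.34 in SS.BN1 (p = 0.0300 and q = 0.458 from the authors' deposited table). Markers of other cells also held calls. Collecting duct markers had 1 call of 7, Aqp2, higher in SS.BN1 (beside 0.0981% of all tested rows), with a median log2 ratio of -0.32 and summed levels of 216 FPKM in SS against 287 in SS.BN1. Thin limb markers had 2 calls of 7, both higher in SS (Aqp1 and Cldn4; beside 3.32% of all tested rows), and Aqp1 is known from proximal tubule too. Endothelial and blood markers had 1 call of 7, Tek, higher in SS.BN1 (again beside 0.0981%), and sums of 496 FPKM in SS against 513 in SS.BN1. Cd74, with 358 FPKM in SS against 349 in SS.BN1, made up most of these sums. The median log2 ratio of the 7 was -0.15, and 3 of them had the higher value in SS. Of 3 distal convoluted tubule markers, 1 was tested and none was called. None of these markers was tested for a part in the enzyme values.

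The strain ratio varied with the level of the gene. The 11 tested enzymes with a mean of 10 FPKM or more had a median log2 ratio of 0.56 and 3 calls (Kap, Miox and Dpp4), beside 4.13% of all tested rows at that level called higher in SS. The 14 tested enzymes under 10 FPKM had a median of 1.21 and 5 calls, beside 2.54%. Across the 25 tested enzymes, Spearman's rho between mean level and log2 ratio was -0.59, a description over genes that share the same 2 strain values and are not independent, beside 0.12 over all 13253 tested rows. The lowest ratios belonged to the G6pc row, Hpd, Sord, Ass1 and Fah, all with a mean between 9.26 and 53.1 FPKM. The highest of these means is that of the G6pc row, which is mostly Psme3. That joined row also enters the median at 10 FPKM or more and the rho above. Kap was the exception at the high end, with the highest mean and a log2 ratio of 1.27. The order of the genes by level was nearly the same in both strains (rho = 0.98 over the 32 genes).

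**Figure D4:**
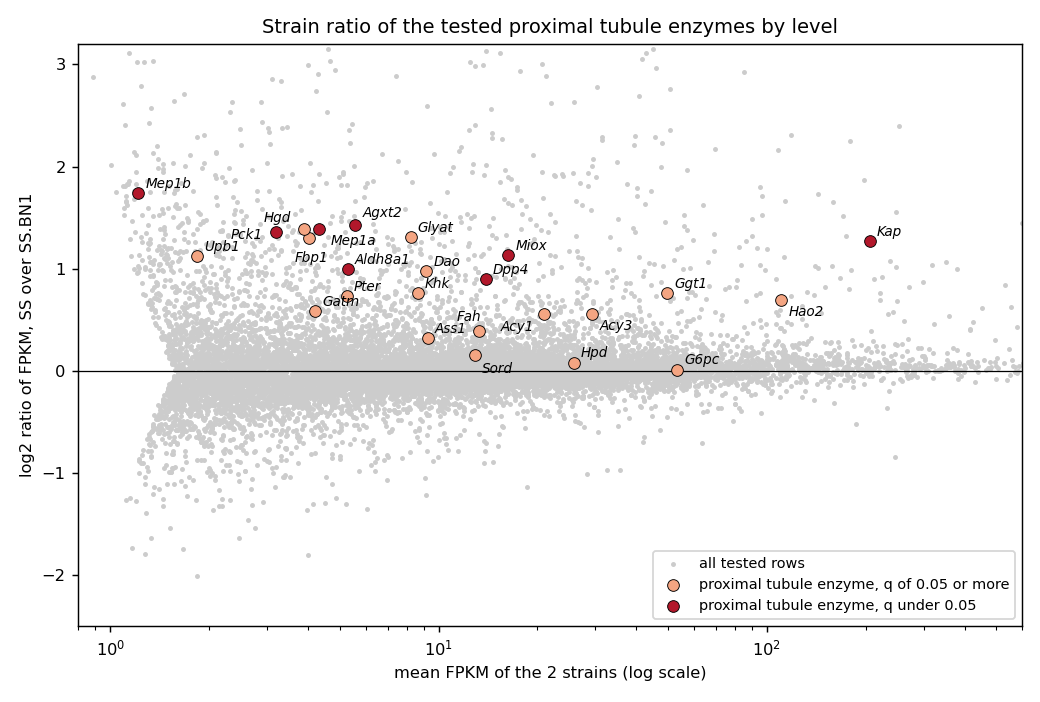
Log2 ratio of SS over SS.BN1 against the mean FPKM of both strains on a log axis, for all tested rows (grey) and the 25 tested proximal tubule enzymes (red where the authors' q was under 0.05, orange where not); 109 tested rows lie outside the plotted range. All 25 rows sit above 0, the G6pc point being a joined row that is mostly Psme3, with a median of 0.56 at a mean of 10 FPKM or more and of 1.21 under it.

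Chromosome 1, the chromosome exchanged between the strains, carries 6 of the 32 genes (Aldh8a1, Fah, Glyat, Acy3, Cyp2e1 and Gldc). Of the 4 tested there, 1 was called, Aldh8a1 (16910069 to 16930481), beside 3.49% of all tested rows on that chromosome called higher in SS. Elsewhere 7 of 21 were called, beside 3.29%. The median log2 ratio was 0.77 for the 4 genes on chromosome 1 and 0.89 for the 21 on other chromosomes, and no test of that difference was made. The higher values in SS therefore belonged to genes both on and off the exchanged chromosome. Positions are those of the deposited table with 1 added to the start, and which build they follow could not be settled.

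Single isoforms gave fewer calls than whole genes. The 32 genes had 84 isoform rows, of which 49 were tested and 4 were called, those of Kap, Pck1, Agxt2 and Mep1a, all higher in SS, beside 1.04% of all tested isoforms. Of the 32 genes, 10 had a single isoform and 17 had at least 1 assembled isoform with no gene name. The called genes Aldh8a1 and Mep1b have a single isoform each, with the same p as the gene but q = 0.0935 and 0.0658 over the larger isoform table, in the authors' deposited tables.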

How the data were processed

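Total RNA of single rats was made into stranded libraries (TruSeq Stranded Total RNA) and sequenced in pairs, per the labels' protocols. The submitters' processing notes name rn5 as the build and list TopHat2 2.1.1, Cufflinks 2.2.1, StringTie, cutadapt and FastQC, without saying what each did. The build is not settled, since 6832 rows carry AABR07 contig names of a later assembly. Because 26 of 31 mitochondrial rows start where another ends, starts were taken as 0-based and 1 was added.

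The deposited tables give FPKM made by the authors, 1 value per strain for each gene and isoform, with the authors' p-value and q-value. The sources used here do not say how 6 libraries became 1 value, nor how much of p reflects spread between animals. The reads behind a gene's FPKM are unknown, so no counting interval is given. Percent of reads mapped, percent of bases at Q30 and a mean quality score per library were deposited as well.

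The 32 genes and the further lists were chosen with earlier results of these data known. Rows were matched where the gene column, split at commas, holds the symbol; 31 symbols are in the RefSeq table of GRCr8 and 1 is a synonym there. A call means that the q the authors gave was under 0.05. Repeating the Benjamini-Hochberg adjustment over 13253 rows gave their q to within 5.27e-07, and the adjustment was tested on simulated p-values. Log2 ratios and folds were computed from FPKM with no pseudocount. The 4 library measures were tested by exact two-sided permutation (924 assignments). From the further lists, up to 4 called genes and the most abundant one are named; exceptions are marked. Some genes of these lists are not reported here by name. Alternatives were other thresholds, filters, pseudocounts and scalings. Scripts ran under Python 3.11.15 with pandas 2.3.3, SciPy 1.17.1, matplotlib 3.10.9 and NumPy 2.4.6.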

Additional observations from a re-analysis of the deposited data

Results flagged for a closer look

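Both flags concern library quality and not the enzymes, and chance alone flags about 1 in 20 groups. Among the 6 SS libraries, the percent of bases at Q30 had 1 library apart from the others, with a gap of 0.654 of the group's range. The mean quality score of the SS libraries had the same library apart, with a gap of 0.673. That library, SS replicate 5, had 89.3% of bases at Q30 and a mean quality of 33.9, the lowest of its strain, and 85.4% of its reads mapped. No enzyme value can be given without it, because levels of single libraries were not analysed here.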

How the results depend on the processing

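The 8 calls remained with a fold of at least 1.5 added and among rows with a mean of at least 1 FPKM. They numbered 7 without rows that join several genes (Miox left out). They also numbered 7 in rows with 1 annotated name or held mostly by annotated isoforms in both strains. That alternative was added after seeing the data. They numbered 3 at q under 0.01 (Kap, Agxt2 and Mep1a). By isoform rows they numbered 4, beside 1.04% of all tested isoform rows called higher in SS. Among rows with a mean of at least 5 FPKM, where 18 of the 25 genes are tested, they numbered 5. The shares of all rows called at q under 0.01 and at a mean of at least 5 FPKM are not given here. The median log2 ratio of the tested enzymes, 0.89, moved to 0.74 with a pseudocount of 1 and to 0.78 when scaled to the sum outside the mitochondrial genome, a scaling that lowers every log2 ratio by 0.11. No called gene changed direction in these alternatives. The count of 25 genes at a mean of at least 1 FPKM was 24 with that minimum in both strains and 27 with a minimum of 0.5. No paired analysis was possible because the labels give no shared replicate numbers and expression is 1 value per strain, so no replicate could be left out of it. Leaving out single libraries, SS minus SS.BN1 ran from -1.18 to 2.32 M reads, from 0.249 to 0.453 percentage points of bases at Q30, from 0.37 to 0.67 points of reads mapped and from 0.0419 to 0.0871 in mean quality. The difference in bases at Q30 passed an unadjusted exact permutation p of 0.05 without SS replicate 5 (p = 0.0173) or SS.BN1 replicate 5 (p = 0.0433). The difference in reads mapped passed an exact permutation p of 0.05 without SS replicate 5, SS.BN1 replicate 4 or SS.BN1 replicate 5 (p = 0.0390, 0.0433 and 0.0216).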
